A study of Equus caballus with 6 samples.

Results

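The insulin-like growth factor (IGF) and insulin axis is covered here by 10 genes, of 18278 genes that have a probe of their own on the array used, and these 10 were read by 19 of the 53423 probes printed once. The members were the ligands IGF1 and IGF2, the receptors IGF1R, IGF2R and INSR, the receptor substrates IRS1 and IRS2, and the binding proteins IGFBP3, IGFBP5 and IGFBP7. A probe was taken as a member if the platform annotation gave it exactly 1 symbol and that symbol was one of these 10 genes. No measured value entered this rule, although the genes were chosen with earlier results of these data known. Testicular parenchyma came from 6 adult stallions, all acclimated to the clinic for 10 days with testes taken 12 h after an injection. Of these, 3 had received dexamethasone, a synthetic agonist of the glucocorticoid receptor, at 0.1 mg/kg intravenously, and 3 controls had received the same volume of saline. The array, 1 per animal, was a human CodeLink design, and its probes were made for human transcripts and not for those of the horse.

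IGF1 and IGF2 are small secreted peptides related to insulin. Both act through IGF1R, a receptor tyrosine kinase closely related to INSR, whereas IGF2R, which is also the cation-independent mannose 6-phosphate receptor, takes IGF2 into the cell for breakdown. Activated IGF1R and INSR phosphorylate the adaptors IRS1 and IRS2, which recruit PI3-kinase and lead to AKT, and the secreted IGFBP proteins bind IGFs outside the cell and set how much of them reaches the receptors. In the mouse, signalling through these receptors is needed for the number of Sertoli cells formed, and in several mammals Leydig, Sertoli and peritubular cells make IGF1. Glucocorticoids are known to oppose insulin signalling in metabolic tissues such as liver and muscle.

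Per array, 22690 to 25537 of the 53423 probes were above background. The normalised arrays correlated at 0.982 to 0.989 over 15 pairs, where the points are probes and not replicates. Slide numbers fell into 2 runs of consecutive numbers, the first with 2 stallions of each group and the second with 1 of each. Of the genes listed as markers of Leydig cells 6 of 8 could be tested, of Sertoli cells 7 of 10, and of germ cells 8 of 14. The germ cell genes DDX4, PRM2, TNP1 and PGK2 were above background on 0 arrays, and low signal on a human probe does not show low expression of the horse gene.

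Of the 19 probes, 10 reached the detection limit in at least 3 of 6 stallions, which is 52.6%, against 51.7% of the other 23453 probes with 1 symbol. These 10 probes covered 6 genes, namely IGF1, IGF1R, IGF2R, IGFBP3, IGFBP5 and IGFBP7, and 9 of them were above background on all 6 arrays. IGF2, INSR, IRS1 and IRS2 had no probe that reached 3 arrays, and 6 of the 19 probes were above background on none. For 3 genes the probes disagreed on detection. IGF2R was read on 6 arrays by one probe and on 0 by the other, IGFBP5 on 6, 6 and 0 arrays, and IGF1 on 6, 6 and 2 arrays. The sequences of the probes were not used here, so no level of one probe is set against that of another.

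**Figure D1:**
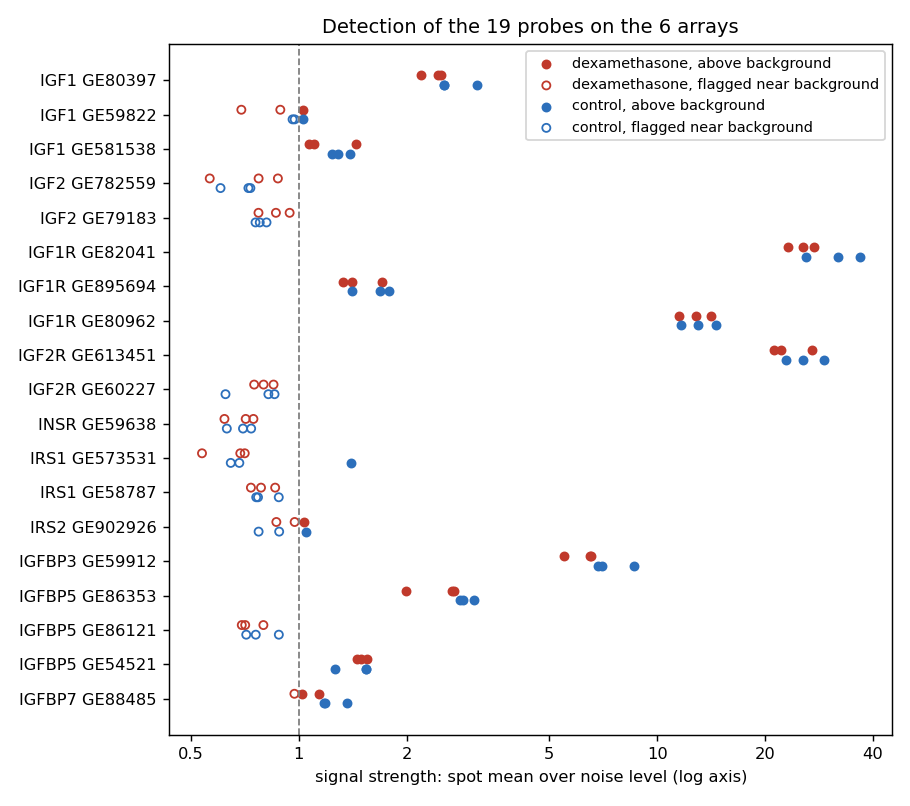
Signal strength, the deposited ratio of spot mean to the noise level of the spot before any normalization, for the 19 probes (rows) on a log axis, with 3 dexamethasone arrays in red and 3 control arrays in blue. Filled points were above background and open points were flagged near background, so all 6 points are filled for 9 probes. All points are open for both probes of IGF2 and for IGF2R GE60227, INSR, IRS1 GE58787 and IGFBP5 GE86121.

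The 10 detected probes were tested in a fit over all 24590 tested probes of the array. At limma's adjusted p of 0.05, 0 of the 10 passed, and 0 had an unadjusted p below 0.05. Over all tested probes 0.00407% passed the adjusted p and 3.29% the unadjusted p. Of the 10, 3 lay higher and 7 lower in the dexamethasone stallions, with 1 higher and 9 lower under median scaling and 2 higher and 8 lower in the authors' deposited scaled values. Over all tested probes 47.5% lay higher and 52.5% lower, and the share higher was 22.8% under median scaling and 33.7% in the deposited values. The median difference of the 10 was -0.06 on the log2 scale, and that of all tested probes was -0.01. Differences ran from -0.15 to 0.11, with standard errors of 0.08 to 0.13. The lowest bound of any 95% interval was -0.36 and the highest 0.28. A gene's value in tissue RNA cannot tell fewer cells of a type from less RNA per cell.

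**Figure D2:**
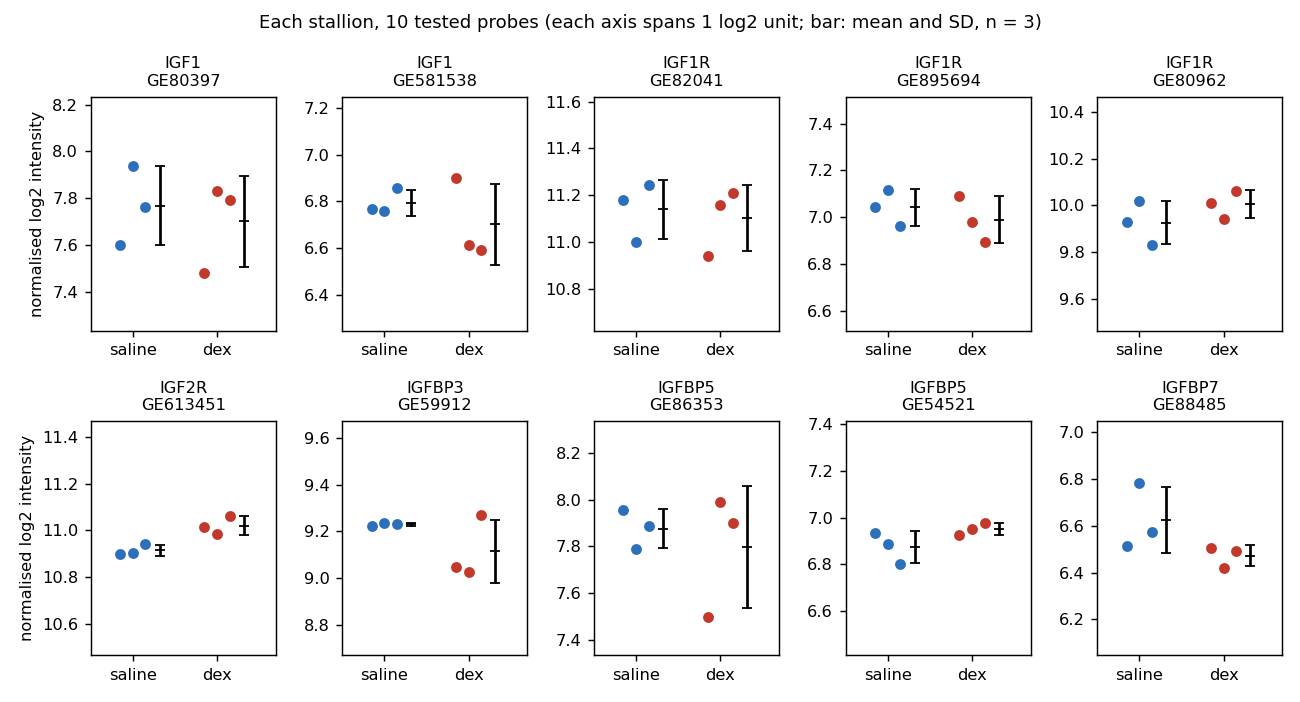
Normalised log2 intensity (vertical axis) of each of the 3 saline (blue) and 3 dexamethasone (red) stallions for the 10 tested probes, with each panel spanning 1 log2 unit and bars giving the mean and SD. The groups lie apart only for IGF2R GE613451 and IGFBP7 GE88485, and 1 dexamethasone stallion lies low for IGF1 GE80397 and IGFBP5 GE86353.

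IGF1, the ligand made in the testis by somatic cells, was read above background on all arrays by 2 probes. With probe GE80397 the dexamethasone stallions were at 7.48, 7.83 and 7.79 and the controls at 7.60, 7.94 and 7.76 (normalised log2 intensity). The groups overlapped over most of their range, and dexamethasone replicate 1 was the lowest of the 6. The group means were 7.70 ± 0.19 and 7.77 ± 0.17 (SD, n = 3 each), and the difference was -0.07 ± 0.12 (SE; 95% interval -0.34 to 0.21). Without dexamethasone replicate 1 it was 0.04 and without control replicate 2 it was 0.02, so its sign rested on these 2 stallions. With probe GE581538 the dexamethasone stallions were at 6.90, 6.61 and 6.59 and the controls at 6.77, 6.76 and 6.86. Here dexamethasone replicate 1 was the highest of the 6 and the other dexamethasone stallions were the lowest, so the 2 probes of IGF1 did not order the stallions alike. The difference was -0.09 ± 0.10 (SE; -0.32 to 0.14), with means of 6.70 ± 0.17 and 6.79 ± 0.05 (SD, n = 3 each). It was -0.19 without dexamethasone replicate 1, -0.05 without dexamethasone replicate 2 and -0.04 without dexamethasone replicate 3. The third probe, GE59822, was above background in 1 stallion of each group and was not tested, at 6.00 to 6.44 in the dexamethasone and 6.28 to 6.54 in the control stallions.

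IGF2, the ligand of fetal growth that is expressed from the paternal copy in human and mouse, was not above background on any array with either of its probes. Probe GE79183 lay at 6.06 to 6.35 in the dexamethasone and 5.97 to 6.11 in the control stallions, and probe GE782559 at 5.68 to 6.24 and 5.72 to 6.01. Their signal strengths, the spot mean over the noise level of the spot, were 0.56 to 0.94, where a score below 1 marks a spot near background. In the horse gene table IGF2 lies next to INS. A probe annotated to INS, IGF2 and their readthrough transcript, and therefore outside the members, was above background on all 6 arrays at 6.72, 6.92 and 6.84 against 6.77, 6.95 and 6.90. The difference of that probe was -0.05 ± 0.09 (SE), the groups overlapped, and which of the annotated transcripts it read cannot be told.

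IGF1R, the receptor through which both IGFs signal, was above background on all 6 arrays with each of its 3 probes. Probe GE80962 read 10.01, 9.94 and 10.06 in the dexamethasone and 9.93, 10.02 and 9.83 in the control stallions. The groups overlapped, with control replicate 3 the lowest, and the difference was 0.08 ± 0.09 (SE; -0.11 to 0.27). Probe GE82041 read 10.94, 11.16 and 11.21 against 11.18, 11.00 and 11.24. Here dexamethasone replicate 1 was lowest and control replicate 3 highest, and the difference was -0.04 ± 0.10 (SE; -0.27 to 0.20). Probe GE895694 read 7.09, 6.98 and 6.89 against 7.04, 7.12 and 6.96 and differed by -0.05 ± 0.09 (SE; -0.25 to 0.15). The 3 probes thus gave differences of both signs, each smaller than its standard error. The sign of GE80962 turned under median scaling (-0.08) and in the deposited values (-0.01), and that of GE82041 turned without dexamethasone replicate 1 (0.04) or control replicate 3 (0.01).

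IGF2R, the receptor that clears IGF2, gave values that lay close together within each group. Its probe GE613451 read 11.01, 10.99 and 11.06 in the dexamethasone stallions and 10.90, 10.90 and 10.94 in the controls. All 3 dexamethasone stallions lay above all 3 controls, which is the case for 4.2% of all tested probes, and a further 5.07% were separated the other way. The means were 11.02 ± 0.04 and 10.92 ± 0.02 (SD, n = 3 each) and the difference was 0.11 ± 0.08 (SE; -0.07 to 0.28), with an unadjusted p of 0.208 and limma's adjusted p of 0.999. The exact two-sided permutation p was 0.1, the smallest that 3 against 3 can give. Within the runs of slides the difference was 0.10 and 0.12. The separation was not present under median scaling, where the difference was -0.03, or in the authors' deposited scaled intensity, where the dexamethasone stallions were at 68.0, 74.4 and 82.0 and the controls at 72.9, 71.4 and 73.7. The second IGF2R probe, GE60227, was above background on 0 arrays, at 6.07 to 6.23 against 5.86 to 6.19.

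INSR, the insulin receptor, was represented by 1 probe, GE59638, which was above background on 0 arrays. It lay at 5.76 to 6.02 in the dexamethasone and 5.77 to 6.10 in the control stallions, with signal strengths of 0.62 to 0.75. IRS1, a substrate of both tyrosine kinase receptors, was above background on 1 array of 6 with probe GE573531, in control replicate 1. That stallion read 6.69, while the other 5 read 5.67 to 6.07. Probe GE58787 of IRS1 was above background on 0 arrays, at 5.93 to 6.19. IRS2, the substrate best known from insulin action in liver and pancreatic islets, was above background in 1 dexamethasone and 1 control stallion. It read 6.39, 6.39 and 6.32 in the dexamethasone and 6.18, 6.41 and 6.08 in the control stallions, groups that overlapped. None of these probes was above background on 3 arrays, so none was tested. Whether INSR, IRS1 or IRS2 differed between the groups cannot be told from these values, which were near background.

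IGFBP3, the main carrier of IGFs in blood and also a product of tissue cells, was nearly constant among the controls and uneven among the dexamethasone stallions. Its probe GE59912 read 9.22, 9.23 and 9.23 in the controls and 9.05, 9.03 and 9.27 in the dexamethasone stallions. In 2 of the 3 dexamethasone stallions it lay below all controls and in the third above all of them. The means were 9.11 ± 0.13 and 9.23 ± 0.01 (SD, n = 3 each) and the difference was -0.12 ± 0.09 (SE; -0.32 to 0.09; unadjusted p = 0.236, limma's adjusted p = 0.999). In the first run of slides it was -0.19, and in the second 0.04. Under median scaling, where the median over all tested probes was -0.08, the difference was -0.25 ± 0.11 (SE), with an unadjusted p of 0.0492 and limma's adjusted p of 0.659. IGFBP3 lies next to IGFBP1 in the horse gene table, and the 2 probes of IGFBP1 were above background on 0 arrays.

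IGFBP5, a binding protein that attaches to the extracellular matrix, had 3 probes. Probe GE86353 read 7.50, 7.99 and 7.90 in the dexamethasone and 7.95, 7.79 and 7.89 in the control stallions. Dexamethasone replicate 1 lay well below the other 5 values, which overlapped. The difference was -0.08 ± 0.13 (SE; -0.36 to 0.20) and became 0.07 without that stallion. Probe GE54521 read 6.92, 6.95 and 6.98 against 6.93, 6.89 and 6.80, with only dexamethasone replicate 1 and control replicate 1 out of order, and differed by 0.08 ± 0.08 (SE; -0.10 to 0.26). The third, GE86121, was above background on 0 arrays. The tested probes of IGFBP5 therefore differed in sign and in the stallion that stood apart.

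IGFBP7, a binding protein of low affinity for IGFs that vascular cells make, had the largest difference of the 10 tested probes in the main setting. Its probe GE88485 read 6.51, 6.42 and 6.49 in the dexamethasone and 6.51, 6.78 and 6.57 in the control stallions. The dexamethasone values all lay below the controls, although the closest stallions of the groups were equal to 2 decimals. The means were 6.47 ± 0.05 and 6.62 ± 0.14 (SD, n = 3 each) and the difference was -0.15 ± 0.09 (SE; -0.36 to 0.06), with an unadjusted p of 0.138, limma's adjusted p of 0.999 and an exact two-sided permutation p of 0.1. The probe was above background in 2 of 3 dexamethasone and 3 of 3 control stallions, with signal strengths of 0.97 to 1.36. Without control replicate 2 the difference was -0.07, and with background subtraction, which does not compress dim signals, it was -0.34 ± 0.17 (SE). A probe shared with TLCD1 and above background on all 6 arrays, which is outside the members, read 7.40, 7.78 and 7.72 against 7.57, 7.84 and 7.53, with overlapping groups and a difference of -0.02 ± 0.12 (SE).

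**Figure D3:**
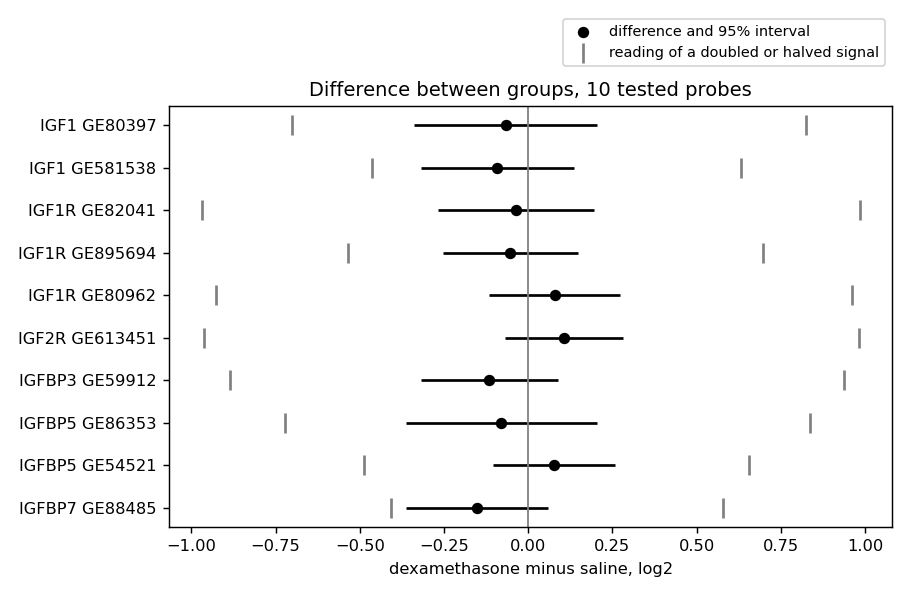
Dexamethasone minus saline on the log2 scale (horizontal axis) for the 10 tested probes, as the difference (point) and its 95% interval (line), with grey ticks where a doubling or halving of the signal above the added offset would be read. All 10 intervals contain 0 and lie inside the ticks, which close in for dim probes such as IGFBP7 GE88485.

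The offset of 50 added to every spot compresses differences of dim probes. From the mean of the controls, a halving of the signal above the offset would be read as -0.97 for IGF1R GE82041, -0.96 for IGF2R and -0.88 for IGFBP3. It would be read as -0.70 for IGF1 GE80397, -0.46 for IGF1 GE581538 and -0.41 for IGFBP7. For each of the 10 probes the 95% interval ended short of these readings and of those for a doubling, by the least for IGFBP7, whose interval began at -0.36. These readings take all signal above the offset as the transcript's own, which was not tested.

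Dexamethasone replicate 1 was the lowest stallion for 3 of the 10 tested probes (IGF1 GE80397, IGF1R GE82041 and IGFBP5 GE86353) and dexamethasone replicate 3 the highest for 4 (IGF1R GE80962, IGF2R, IGFBP3 and IGFBP5 GE54521). Over the 22332 tested probes with 6 values dexamethasone replicate 1 was lowest for 18.1% and dexamethasone replicate 3 highest for 16.7%. Without dexamethasone replicate 1 the median difference of the member probes turned from -0.06 to 0.04, with 6 higher and 4 lower. With slide run in the fit as a block, the differences were as in the fit without it, with standard errors of 0.08 to 0.13 again. Within the first run the member differences ranged from -0.19 to 0.10, with a median of -0.04. Within the second they ranged from -0.26 to 0.23, with a median of 0.02.

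**Figure D4:**
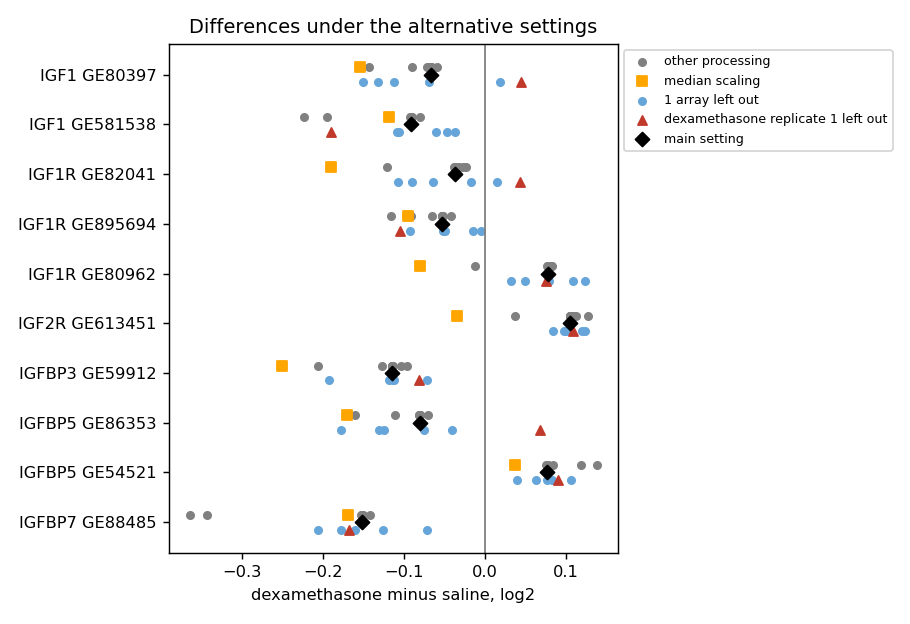
Dexamethasone minus saline on the log2 scale (horizontal axis) for the 10 tested probes in the main setting (black), under other processing (grey and orange) and with 1 array left out (blue and red). Median scaling moved every probe to the left, and leaving out dexamethasone replicate 1 turned IGF1 GE80397, IGF1R GE82041 and IGFBP5 GE86353 to above 0.

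Further genes of the pathway were taken from a list of 56, of which 50 had a probe with 1 symbol. Among their 73 probes, 44 probes of 34 genes were tested, 25 higher and 19 lower with a median difference of 0.02, but 12 higher and 32 lower with a median of -0.06 under median scaling and 19 and 25 with -0.02 in the authors' deposited values. None passed limma's adjusted p of 0.05, and 1 higher and 2 lower probes had an unadjusted p under 0.05, against 1.47% and 1.81% of all tested probes. The groups did not overlap for 1 higher and 3 lower of the 44 probes, where over all tested probes 4.2% and 5.07% were separated in these directions, and 1 of the 3 lower probes had only 2 values a group. Ligands, other binding proteins and their proteases had 9 tested probes, 6 higher and 3 lower, with 4 and 5 under median scaling. Receptors and adaptors had 7, with 4 higher and 3 lower, or 2 and 5 under median scaling. PI3-kinase, AKT, FOXO and GSK3 genes had 14, with 6 higher and 8 lower, or 1 and 13 under median scaling. The mTOR branch had 5, with 3 higher and 2 lower, or 2 and 3 under median scaling. Phosphatases and SOCS inhibitors had 4, with 4 higher by 0.06 to 0.26, or 2 higher and 2 lower under median scaling. The largest of these was of a SOCS2 probe that met the detection limit through the dexamethasone stallions, and the others were 0.06 to 0.19. The IGF2BP proteins, which bind IGF2 messenger RNA, had 3, with 1 higher and 2 lower, and metabolic target genes had 2, with 1 in each direction, or 0 higher and 2 lower under median scaling.

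INS, the insulin gene, was above background on all 6 arrays with its probe GE59971, at 8.51, 8.37 and 8.23 in the dexamethasone and 8.11, 8.22 and 8.10 in the control stallions. The groups did not overlap, although the closest values, 8.23 and 8.22, nearly met. The difference was 0.22 ± 0.10 (SE; unadjusted p = 0.0424, limma's adjusted p = 0.999), or 0.11 under median scaling and 0.15 without dexamethasone replicate 1. The probe annotated to INS, IGF2 and their readthrough transcript differed by -0.05 ± 0.09 (SE). Whether the horse INS transcript gave the signal of either human probe was not tested. AKT1, the kinase activated downstream of PI3-kinase, read 7.38, 7.44 and 7.24 against 8.12, 7.86 and 7.42. The dexamethasone stallions lay below 2 of the controls, and control replicate 3 lay among them. Its difference was -0.45 ± 0.16 (SE; unadjusted p = 0.0178, limma's adjusted p = 0.999). It was -0.29 without control replicate 1 and -0.64 without control replicate 3. Both probes of AKT2, at -0.05 ± 0.09 and 0.06 ± 0.09 (SE), lay near 0.

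GSK3A, a kinase that AKT inhibits, had usable values in 2 stallions of each group with probe GE57271, 8.86 and 8.84 against 9.39 and 9.04. That probe differed by -0.37 ± 0.14 (SE; unadjusted p = 0.0289, limma's adjusted p = 0.999), all from the first run of slides, while its second probe, with 6 values, differed by 0.02 ± 0.10. Under median scaling, where the median over all tested probes was -0.08, the first probe differed by -0.57. FOXO1, the transcription factor that AKT keeps out of the nucleus, read 8.77, 8.73 and 8.81 against 8.89, 9.03 and 8.89. Its groups did not overlap and its difference was -0.16 ± 0.08 (SE; unadjusted p = 0.0807, limma's adjusted p = 0.999). Under median scaling it was -0.30, with an unadjusted p of 0.014 and limma's adjusted p of 0.659. In the authors' deposited values, where the median over all tested probes was -0.07, it was -0.27. Without control replicate 2 the FOXO1 difference was -0.12. SOCS2, an inhibitor of growth hormone signalling, differed by 0.26 ± 0.13 (SE) with a probe above background in 3 dexamethasone stallions and 1 control stallion. That probe, with signal strengths of 0.74 to 1.10, met the limit of 3 arrays through the group where it read higher. Its difference is therefore not independent of the detection filter. The other SOCS2 probe, above background on 6 arrays, differed by 0.07 ± 0.09 (SE). Without control replicate 3 the first of these differences was 0.14, and with background subtraction it was 0.89. EIF4EBP1, the translation repressor that mTOR inactivates, differed by 1.60 ± 0.76 and 1.67 ± 0.83 (SE) with its 2 probes. Both differences came mostly from control replicate 3, at 8.89 and 8.51, where the other controls read 12.12 to 12.63, and without that stallion the first probe differed by 0.43. DDIT4, an inhibitor of mTOR that glucocorticoids induce in rat muscle and that was picked here after its value was seen, differed by -0.02 ± 0.09 (SE) with probe GE88478. Its other probe, GE80055, was above background on 0 arrays and was not tested.

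**Figure D5:**
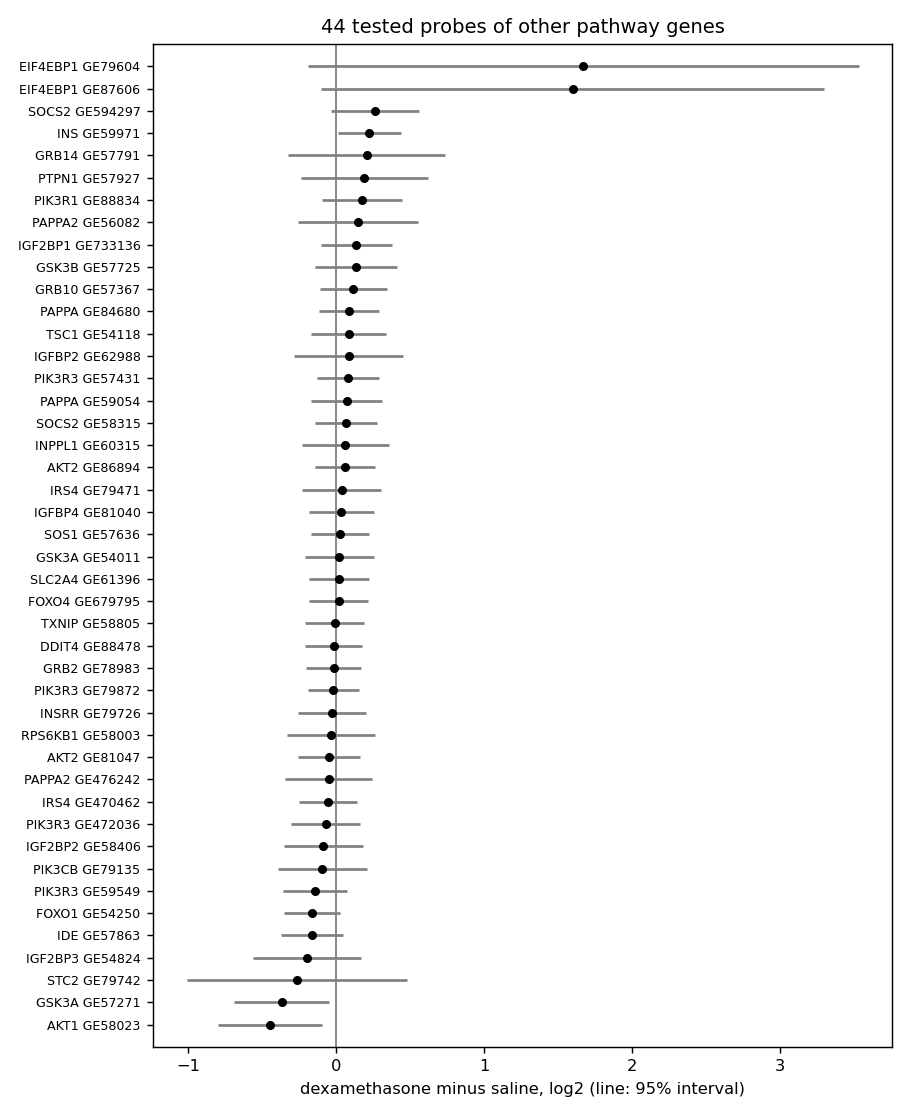
Dexamethasone minus saline on the log2 scale (horizontal axis) for the 44 tested probes of the other pathway genes (rows), as the difference (point) and its 95% interval (line), ordered by size. Most points lie within 0.3 of 0, the 2 EIF4EBP1 probes lie above 1 with wide intervals, and the intervals of INS, GSK3A GE57271 and AKT1 leave out 0.

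The testis cells that make and receive IGF1 include Leydig and peritubular cells, and the summed signal of the markers of each lay lower in the dexamethasone stallions. The ranges overlapped once INSL3 was left out for Leydig cells or MYLK for peritubular cells. They stayed apart without LHCGR or STAR for Leydig cells and without ACTA2 or CALD1 for peritubular cells. Each of these sums still held INSL3 or MYLK, and the other tested Leydig genes had no probe in the sum. For Leydig cells 9 probes, of 6 of the 8 genes listed, were tested, with 4 higher, 5 lower and a median difference of -0.08. The linear normalised intensities were summed over the 6 of these probes with a value on every array, a choice made after seeing the data. These 6 probes were of only 3 genes, INSL3, LHCGR and STAR. The sum was 5962 to 6754 in the dexamethasone and 6989 to 8191 in the control stallions. Without INSL3, a peptide hormone gene of Leydig cells, the sums overlapped, at 4996 to 5174 against 4978 to 5656. The 7 tested Leydig probes that were not of INSL3 were 4 higher and 3 lower, with a median difference of 0.003. INSL3 differed by -1.21 ± 0.23 (SE) with probe GE552890, whose groups did not overlap, and by -0.52 ± 0.22 with probe GE88024, whose groups overlapped. All 4 tested peritubular probes, of 3 of the 7 genes, lay lower, with a median difference of -0.21. Their sum was 655 to 730 against 754 to 824. Without MYLK, a kinase of smooth muscle contraction, 2 probes were left and the sum was 163 to 194 against 188 to 197. The defining markers NR5A1, of Leydig cells, and MYH11 and CNN1, of peritubular cells, were above background on 0 arrays. The Sertoli markers summed to 2337 to 2792 against 2507 to 2832 over 6 probes. The endothelial ones summed to 1788 to 2011 against 1961 to 2100 over 5 probes. All 5 of these lay lower, with a median difference of -0.11. Of the tested Sertoli probes 3 were higher and 6 lower, and of the fibroblast probes 2 and 6. Germ cell probes were 4 higher and 4 lower, and lymphocyte probes 1 and 3. The 2 macrophage probes and the 1 erythrocyte probe lay higher. No marker probe passed limma's adjusted p, and the part of these shifts in the values of IGF1, IGFBP3 or IGFBP7 was not tested.

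Among the members above background on all arrays, IGFBP5 GE86353 varied most over the 6 stallions, with an SD of 0.18. Of 9206 other probes with 1 symbol, 6 values and detection on all 6 arrays, those most like it were probes of EPN1, LINC01743 and GTPBP8, with Pearson correlations of 0.992, 0.991 and 0.989 over 6 arrays. These are the highest of very many correlations over few points that share their arrays, and they are given as a description.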

How the data were processed

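The scanner files that the authors deposited give, per the file headers, the spot mean and local background median intensity of each spot, a quality flag, a scaled intensity and a signal strength score. The deposited score is the spot mean over the noise level of the spot. For the scanner software and the flags' meaning, the sources used here give nothing. From the values, spots flagged L had scores of no more than 1, and M marks spots without a value. Spots flagged C, I or P were set to missing. Intensities were corrected with normexp (offset 50), quantile normalised and logged (log2), with limma 3.58.1 under R 4.3.3. Figures used matplotlib 3.10.9. Names printed more than once were left out as controls.

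A probe was tested if above background on at least 3 of 6 arrays with at least 2 values per group. Testing used lmFit and eBayes of limma, two-sided, with Benjamini-Hochberg adjustment over 24590 probes, tried on simulated data. Median spot intensity was 72.6 to 79.4 over a background of 47 to 50, and the number of arrays limits precision. Nothing in the labels says more of the stallions than 1 sample each. Replicate numbers follow the order of the samples and pair no stallions.

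The members, lists and alternatives were chosen with earlier results of these data known. All 10 members are named. Of the other pathway genes the 3 higher and 3 lower with the smallest p are named. In the platform annotation 23472 probes have 1 symbol and 905 have several, and 29046 are not listed and unnamed here. No genome build or probe sequence was used.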

Additional observations from a re-analysis of the deposited data

How the results depend on the processing

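No paired analysis was possible because the labels give the stallions no shared replicate number. Member probes past limma's adjusted p numbered 0 in all 16 alternatives, and so did the other pathway probes. At the unadjusted p there was 1 member probe, IGFBP3, under median scaling and 0 in the other 15. Other pathway probes at that p numbered 3, with 1 under background subtraction, 5 with no filter, 5 with slide run as a block, and 2 to 4 without each array in turn. Over all probes 1 passed the adjusted p, which fell to 0 under trended, robust eBayes, under background subtraction and when detection on all 6 arrays was required. Leaving out single arrays gave 0 to 1, with 0 for control replicates 1 and 3. At the unadjusted p 808 passed, with 1798 under median scaling, 2073 with no filter, where 52902 probes were tested, and 581 to 1053 without each array. Of these 44.8% were higher, but 6.17% under median scaling and 26.0% in the deposited values. The median difference of the member probes was -0.06, and -0.14 under median scaling, -0.13 in the deposited values and between -0.065 and 0.0438 without each array, positive only without dexamethasone replicate 1. Of 159 values of single member probes under alternatives, 8 changed sign and none had an adjusted p below 0.659. By a signal strength of at least 1.5, 8 member probes were detected on 3 arrays in place of 10. Other causes of these shifts were not tested. Signal limits IGF2, INSR, IRS1 and IRS2, which were near background.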
